A study of Mus musculus with 25 samples.

Results

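The thioredoxin, peroxiredoxin and sulfiredoxin genes were followed in the mouse esophagus with NRF2 activated by mutation or by loss of KEAP1. The group held 10 genes taken by symbol from both processed tables: Txn1, Txnrd1, Txnrd2, Srxn1, Prdx1, Prdx2, Prdx5, Prdx6, Glrx and Txnip. These were 10 of 21106 genes listed for pups and 10 of 19942 listed for adults. All 10 passed the filter on low values in both tables, so each was tested in every comparison.

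NRF2, encoded by Nfe2l2, is a transcription factor, and KEAP1 is the adaptor that marks it for degradation. The L30F knock-in allele carries phenylalanine in place of leucine at codon 30 of NRF2 and was switched on by Cre recombinase driven by the keratin 5 promoter, whose activity lies in squamous epithelial cells. The pup experiment used mice 7 to 10 days old: wild type, NRF2L30F/L30F::K5Cre (homozygotes) and KEAP1fl/fl::K5Cre (KEAP1-deficient), with 3 libraries each. The adult experiment used mice 6 to 9 weeks old, 1 week after tamoxifen at 100 μg per g body weight: wild type, NRF2L30F/+::K5CreERT2 (heterozygotes), NRF2L30F/L30F::K5CreERT2 (homozygotes) and KEAP1fl/fl::K5CreERT2 (KEAP1-deficient), with 4 libraries each. Here CreERT2 is a tamoxifen-dependent Cre. The labels do not say whether wild-type mice carried Cre or whether a library stands for 1 animal. The p-values therefore refer to the spread among libraries, which may be technical. RNA came from the whole esophagus, in which cells without keratin 5 Cre are also present.

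Thioredoxin is a small protein that passes electrons to oxidised proteins, and thioredoxin reductase restores it with NADPH. Peroxiredoxins use a reactive cysteine to break down peroxides and are recycled mostly by thioredoxin. In some peroxiredoxins, sulfiredoxin repairs that cysteine when it is over-oxidised. NRF2 is a textbook activator of several of these genes, through DNA elements with the core letters TGACNNNGC.

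The promoters of Prdx1, Srxn1 and Txnrd1 are shown because these 3 of the 9 members with a RefSeq promoter window held the core motif, and because all 3 genes rose in both mutant pup groups. A window covers 250 bases before to 50 bases after a transcription start in RefSeq's GRCm38.p6 annotation, and the members had 12 such windows. The build of the deposited values is GRCm39 per the labels, and the files give no coordinates. Both strands were searched. TGACNNNGC was present in 12.4% of 32851 windows of all genes and its strict form TGACTCAGC, a subset of it, in 0.454%. TGAGNNNGC, chosen after the sequences had been seen, was present in 17.6%. By gene, 14.0% of 27025 genes had a window with TGACNNNGC and 30.8% had one with either of TGACNNNGC and TGAGNNNGC, which is near 3 of 9. Capitals mark matches of TGACNNNGC or TGAGNNNGC on either strand, and each stretch reads 5′ to 3′ along the gene's strand, upstream of the start.
Prdx1, chr4:116685436-116685598, plus strand: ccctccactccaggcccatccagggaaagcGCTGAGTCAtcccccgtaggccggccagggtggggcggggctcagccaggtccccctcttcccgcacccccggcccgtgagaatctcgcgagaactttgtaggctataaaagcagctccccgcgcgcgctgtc
Srxn1, chr2:152105336-152105523, plus strand: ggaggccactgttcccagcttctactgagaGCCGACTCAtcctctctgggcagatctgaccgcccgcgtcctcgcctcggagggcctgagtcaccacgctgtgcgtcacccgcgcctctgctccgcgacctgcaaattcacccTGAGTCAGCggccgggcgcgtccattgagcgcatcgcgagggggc
Txnrd1, chr10:82859084-82859152, plus strand: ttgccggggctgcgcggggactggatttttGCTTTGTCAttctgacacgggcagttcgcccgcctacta
In Prdx1 the match began 133 bases before the start and read TGACTCAGC on the opposite strand. In Srxn1 a match 45 bases before the start read TGAGTCAGC on the gene's own strand, and a match 158 bases before it read TGAGTCGGC on the opposite strand. In Txnrd1, which had 3 windows, the match lay 92 bases before one of the starts and read TGACAAAGC on the opposite strand. Further matches fell within the first 50 transcribed bases of Srxn1 and Prdx1, which are not printed. The one in Srxn1 read TGACCTAGC on the opposite strand and was its only match of TGACNNNGC. Both matches marked in the Srxn1 stretch are therefore of TGAGNNNGC, the form chosen after the sequences had been seen. The one in Prdx1 read TGAGAACGC on the opposite strand. CACGTG, the carbohydrate response core associated with Txnip, was present in 7.15% of all windows and in none of the members' windows. These are letter matches and no binding was measured.

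The pup libraries held 18791974 to 19650133 reads over the listed genes. In adults depth differed by genotype, from 27529872 to 32281399 reads in wild type, 12814894 to 16921613 in heterozygotes, 10867764 to 11643385 in homozygotes and 22484305 to 31344260 in KEAP1-deficient libraries. Keap1 was lower in all KEAP1-deficient libraries than in any wild-type library of the same experiment, with falls of 0.46 on the log2 scale in pups and 0.60 in adults (adjusted p = 0.012 and 8e-06). Nqo1, a classical NRF2 target, rose in every mutant group, by log2 7.01 and 7.28 in pup homozygotes and KEAP1-deficient pups, and by 1.95, 2.51 and 2.45 in adult heterozygotes, homozygotes and KEAP1-deficient mice. Nfe2l2 itself read 5203 to 6110 normalised counts in adult wild type, 3293 to 4117 in heterozygotes and 1199 to 1806 in homozygotes. In KEAP1-deficient adults it read 4209 to 4403. It was called lower by limma in each of these adult mutant groups, with log2 changes of -0.67, -1.98 and -0.39 (adjusted p = 0.0028, 1.2e-08 and 0.011). In KEAP1-deficient pups Nfe2l2 was called higher (log2 0.93, adjusted p = 0.0013), while its pup homozygote and wild-type libraries overlapped. The substitution is not visible in gene-level values. One pup homozygote library, replicate 3, had 0 reads of the Y-linked gene Ddx3y, against 609 to 1300 in the other 8 pup libraries. It had 46167 reads of Xist, a gene expressed in female cells, against 20 to 90 in those 8. By these genes replicate 3 was female and the other pup libraries male, so sex differed within the pup homozygotes. Without replicate 3 the test called 8 members in pup homozygotes against wild type in place of 7, with Txnrd2 added. Markers of squamous epithelium were present in all libraries.

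Values are normalised read counts per library, listed from replicate 1 upward. Fold changes come from limma on log2(value + 1), a scale that understates the change of low genes, and p-values were adjusted over all genes tested in the table and called under 0.05. The pup and adult tables were normalised separately, so levels set side by side across them are not comparable. Scaling to total counts, in place of the deposited scaling, shifted the median log2 change of all genes by -0.21 in pup homozygotes, -0.33 in KEAP1-deficient pups, 0.13 between these 2 groups and -0.13 between adult heterozygotes and KEAP1-deficient adults. It shifted the differences between the experiments by 0.24 for homozygotes and 0.42 for KEAP1 deficiency. Changes below are relative to the deposited scaling. All comparisons with wild type in an experiment share its wild-type libraries.

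In L30F homozygous pups, 7 of 10 members rose (Srxn1, Glrx, Prdx1, Txnrd1, Txn1, Prdx6 and Prdx5) and none fell, where 39.2% of 21007 genes were called, 22.0% higher and 17.1% lower. In KEAP1-deficient pups the test called the same 7 genes, all higher, where 49.5% of genes were called, 26.3% higher and 23.2% lower. Of all genes called, 56.3% and 53.1% were higher, and 33.7% and 27.2% with total count scaling. The median log2 fold change of the 10 members was 1.85 and 1.90, against -0.03 and -0.05 for all genes. Txnrd2, Prdx2 and Txnip were not called in either group. The markers of suprabasal squamous cells moved in the same comparisons: 5 of 6 rose and 1 fell in each, with median log2 changes of 2.32 and 2.86 and a summed level of 184618 to 218962 and 266294 to 286491 against 113147 to 119553 in wild type. Fibroblast markers fell in 6 of 7, from 461793 to 498913 in wild type to 161437 to 227946 in homozygotes and 98548 to 194822 in KEAP1-deficient pups. Of 7 basal squamous markers, 4 rose and 1 fell in each mutant group. The part of these cell types in the results was not tested. In whole-tissue RNA, fewer cells of a type and less RNA per cell cannot be told apart.

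**Figure D1:**
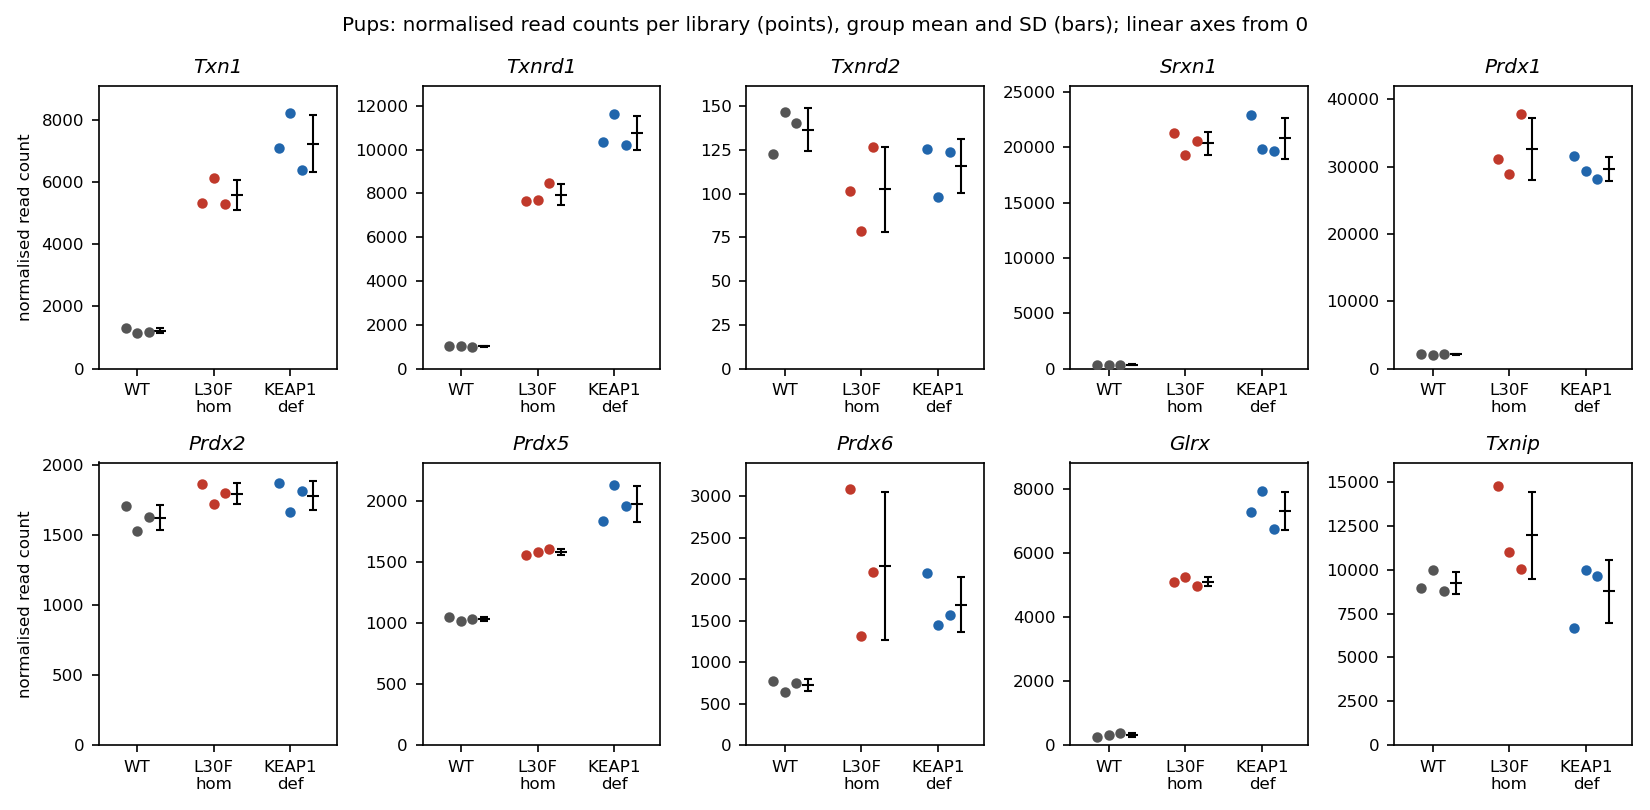
Normalised read counts of the 10 members in the 9 pup libraries (points), on linear axes from 0, with the mean and SD of each group (bars, n = 3). Srxn1, Prdx1, Glrx, Txnrd1 and Txn1 stand far above wild type in both mutant groups, whereas the Prdx2 values of all groups lie between 1529 and 1866.

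Sulfiredoxin showed the largest change of the family in pups. Srxn1 (ENSMUSG00000032802) read 363, 361 and 344 in wild type, 21333, 19285 and 20542 in L30F homozygotes and 22973, 19860 and 19677 in KEAP1-deficient pups. The wild-type libraries lay far below all mutant libraries, and the mutant groups overlapped. The rise was 57.1-fold in homozygotes (log2 5.83, SE 0.08, adjusted p = 1.6e-11) and 58.2-fold in KEAP1-deficient pups (log2 5.86, SE 0.08, adjusted p = 1.1e-11). By size of rise, Srxn1 ranked 108 and 130 among 21007 genes. Homozygous and KEAP1-deficient pups did not differ detectably in Srxn1: the log2 difference was -0.03, with a 95% interval from -0.20 to 0.14, and its sign changed with the scaling.

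Cytosolic thioredoxin and its reductase rose together. Txn1 (ENSMUSG00000028367), the cytosolic thioredoxin, read 1303, 1148 and 1189 in wild-type pups, 5326, 6139 and 5285 in homozygotes and 7099, 8225 and 6402 in KEAP1-deficient pups. No library of one group fell in the range of another. Txn1 rose 4.59-fold (log2 2.20, SE 0.10, adjusted p = 8.9e-08) and 5.94-fold (log2 2.57, SE 0.10, adjusted p = 2.1e-08). Txnrd1 (ENSMUSG00000020250), the cytosolic reductase, read 1039, 1023 and 975 in wild type, 7636, 7676 and 8484 in homozygotes and 10367, 11642 and 10227 in KEAP1-deficient pups. The 3 groups were again separate. Txnrd1 rose 7.82-fold and 10.6-fold (log2 2.97 and 3.40, SE 0.07 each, adjusted p = 1.3e-09 and 3.8e-10). Txnrd2 (ENSMUSG00000075704), the mitochondrial reductase, read 123, 147 and 140 in wild type, 102, 79 and 127 in homozygotes and 126, 98 and 124 in KEAP1-deficient pups. These ranges overlapped and neither difference was called (log2 -0.43 and -0.24, adjusted p = 0.096 and 0.32). With total count scaling Txnrd2 was called lower in both mutant groups (log2 -0.64 and -0.58). With the mean striated muscle level as a covariate it was called lower in KEAP1-deficient pups only (log2 -0.52, adjusted p = 0.022). The homozygote change was then log2 -0.38 (adjusted p = 0.051).

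Among the peroxiredoxins, Prdx1 changed most in pups. Prdx1 (ENSMUSG00000028691), an abundant cytosolic peroxiredoxin, read 2119, 2035 and 2217 in wild type, 31162, 28922 and 37817 in homozygotes and 31532, 29316 and 28090 in KEAP1-deficient pups. It rose 15.3-fold (log2 3.93, SE 0.10, adjusted p = 1.3e-09) and 13.9-fold (log2 3.80, SE 0.10, adjusted p = 1.2e-09), and the mutant groups overlapped. Prdx5 (ENSMUSG00000024953), which is found in mitochondria, peroxisomes and cytosol, read 1053, 1017 and 1029 in wild type, 1560, 1583 and 1604 in homozygotes and 1837, 2129 and 1959 in KEAP1-deficient pups. Here the step was small and the groups did not overlap. Prdx5 rose 1.53-fold and 1.91-fold (log2 0.61 and 0.93, SE 0.07 each, adjusted p = 6.2e-05 and 2e-06).

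Prdx6 (ENSMUSG00000026701), a peroxiredoxin with a single active cysteine that is reduced by glutathione rather than thioredoxin, varied most among the members in pup homozygotes. It read 778, 636 and 750 in wild type, 3093, 1312 and 2087 in homozygotes and 2075, 1443 and 1568 in KEAP1-deficient pups. The mutant libraries all lay above wild type, but homozygotes spread widely, with a coefficient of variation of 41.3% against 10.4% in wild type. The rise was 2.83-fold in homozygotes (SE 0.29 on the log2 scale, adjusted p = 0.0037) and 2.33-fold in KEAP1-deficient pups (log2 1.22, SE 0.29, adjusted p = 0.0078). Prdx2 (ENSMUSG00000005161), a cytosolic peroxiredoxin that is very abundant in red blood cells, read 1708, 1529 and 1625 in wild type, 1865, 1716 and 1794 in homozygotes and 1866, 1665 and 1809 in KEAP1-deficient pups. The differences were not called (log2 0.15 and 0.13, adjusted p = 0.14 and 0.15), and with total count scaling their sign turned to -0.07 and -0.21, the latter called lower at an adjusted p of 0.038. The summed level of 7 red blood cell markers was 62047 to 144283 in wild-type pups, 24852 to 104970 in homozygotes and 5839 to 10779 in KEAP1-deficient pups, in which 5 of the 7 fell. The part of red blood cells in the Prdx2 values was not tested.

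Glutaredoxin also rose strongly in pups. Glrx (ENSMUSG00000021591), which removes glutathione from proteins, read 255, 327 and 379 in wild-type pups, 5102, 5231 and 4968 in homozygotes and 7264, 7935 and 6745 in KEAP1-deficient pups, with no overlap among the 3 groups. It rose 16.1-fold (log2 4.01, SE 0.13, adjusted p = 7.1e-09) and 23.0-fold (log2 4.52, SE 0.13, adjusted p = 2.4e-09). Txnip (ENSMUSG00000038393), the protein that binds and inhibits thioredoxin, read 8992, 9970 and 8809 in wild type, 14820, 11012 and 10084 in homozygotes and 6691, 9971 and 9654 in KEAP1-deficient pups. The homozygotes lay above wild type by a narrow margin and the KEAP1-deficient libraries overlapped it. Neither difference was called (log2 0.35 and -0.10, adjusted p = 0.14 and 0.68).

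Set against each other, the mutant pup groups differed in 2 of 10 members, where 4.17% of all genes were called, 1.76% higher and 2.40% lower in homozygotes. Of those called, 42.3% were higher in homozygotes, 87.2% with total count scaling and 52.3% with TMM scaling. Txnrd1 and Prdx5 were lower in homozygotes than in KEAP1-deficient pups, by log2 -0.44 and -0.32 (SE 0.07 each, adjusted p = 0.026 and 0.038). Both calls depended on single libraries: the Txnrd1 call ended without wild-type replicate 2, homozygote replicate 1 or 2 or KEAP1-deficient replicate 2 (adjusted p up to 0.086). The Prdx5 call ended without any 1 library other than wild-type replicate 1 (adjusted p up to 0.12). No member was called higher in homozygotes.

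In adults 2, 5 and 7 of the 10 members were called in heterozygotes, homozygotes and KEAP1-deficient mice. Heterozygotes showed higher Srxn1 and Prdx1 and no other called member, 2 of 10, where 9.70% of 19857 genes were called, 4.80% higher and 4.90% lower. Of all genes called there, 49.5% were higher, and 37.4% with total count scaling. In homozygotes 5 of 10 were called, with Srxn1, Prdx1, Txn1 and Txnrd1 higher and Prdx2 lower, where 22.3% of genes were called, 11.8% higher and 10.4% lower. In KEAP1-deficient adults 7 of 10 were called, where 46.8% of genes were called, 24.1% higher and 22.7% lower. Srxn1, Prdx1, Txnrd1, Txn1 and Glrx rose and Txnip and Prdx2 fell. In a fit of only KEAP1-deficient and wild-type adults 9 members were called, with Txnrd2 and Prdx6 added, both lower. The median log2 fold change of the members was 0.16, 0.49 and 0.22 in the 3 comparisons, against 0.01, -0.01 and -0.01 for all genes.

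Cell type markers also differed between the adult groups. The summed level of 12 striated muscle markers was 470752 to 514192 in wild type, 606933 to 856944 in heterozygotes, 438042 to 625239 in homozygotes and 179722 to 264858 in KEAP1-deficient adults, in which 11 of 12 fell. Leukocyte markers rose in 6 of 6 there, from 5651 to 10236 in wild type to 16698 to 22831, and in 5 of 6 in homozygotes, to 10093 to 19612. Suprabasal markers fell in 6 of 6 in KEAP1-deficient adults and in 5 of 6 in homozygotes, and smooth muscle markers fell in 6 of 7 in KEAP1-deficient adults. Of 7 basal squamous markers, 4 rose and 2 fell in KEAP1-deficient adults, and 2 rose and 1 fell in homozygotes. Basal markers summed to 70794 to 90939 in wild type and 183877 to 214323 in KEAP1-deficient adults. Their mean log2 levels overlapped, at 12.8 to 13.0 and 12.7 to 13.2, so the sums reflect the most abundant markers. Mitochondrially encoded transcripts summed to 249303 to 309768 in wild type, with 4 of 5 higher in heterozygotes (342355 to 442967) and 4 of 5 lower in KEAP1-deficient adults (204808 to 232501). With the mean striated muscle level as a covariate, 4 members stayed called in KEAP1-deficient adults against wild type (Srxn1, Prdx1, Txnrd1 and Txn1), while the calls of Glrx, Txnip and Prdx2 ended (Prdx2 at log2 -0.23). As a mean log2 level, the scale of the covariate, muscle was 12.2 to 12.7 in KEAP1-deficient adults and 14.4 to 14.8 in heterozygotes. It was 13.8 to 14.2 in wild type and 13.8 to 14.3 in homozygotes. KEAP1-deficient adults and heterozygotes each overlapped no other group on that scale. Muscle and genotype therefore cannot be told apart in comparisons with either of these groups. In pups the level was 13.1 to 13.4 in wild type, 12.8 to 13.6 in homozygotes and 13.5 to 13.7 in KEAP1-deficient libraries. KEAP1-deficient pups lay above all wild-type pups, so the same limit holds between these 2 groups. The part of the other cell types was not tested.

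**Figure D2:**
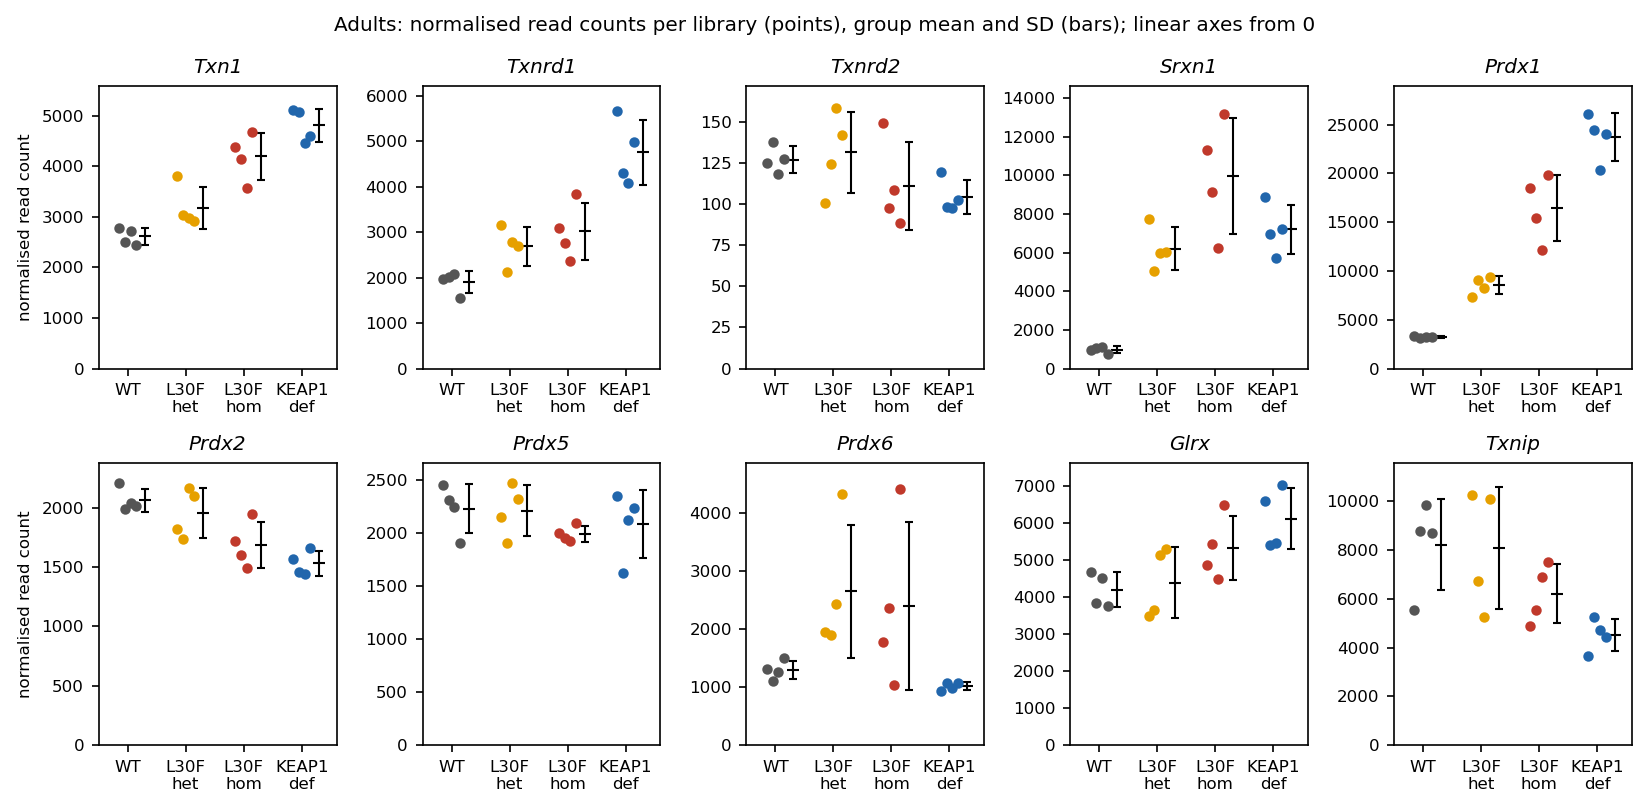
Normalised read counts of the 10 members in the 16 adult libraries (points), on linear axes from 0, with the mean and SD of each group (bars, n = 4). Prdx1 steps up from wild type through heterozygotes and homozygotes to KEAP1-deficient adults, with homozygote libraries from 12158 to 19797, whereas Srxn1 is high in all 3 mutant groups and Prdx6 is widely spread in both L30F groups.

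Srxn1 again changed most in the L30F groups. It read 951, 1082, 1134 and 745 in adult wild type, 7752, 5047, 5997 and 6043 in heterozygotes, 11311, 9148, 6227 and 13172 in homozygotes and 8854, 6964, 5745 and 7238 in KEAP1-deficient adults. Every mutant library lay above every wild-type library, and the 3 mutant groups overlapped one another. Srxn1 rose 6.35-fold in heterozygotes (log2 2.67, SE 0.21, adjusted p = 1.5e-06), 9.93-fold in homozygotes (log2 3.31, SE 0.21, adjusted p = 4.5e-08) and 7.36-fold in KEAP1-deficient adults (log2 2.88, SE 0.21, adjusted p = 4.3e-08). The order of the mean levels was wild type, heterozygotes, KEAP1-deficient, homozygotes. Of these neighbours, heterozygotes did not differ detectably from KEAP1-deficient adults (log2 -0.21, 95% interval -0.66 to 0.23), nor did KEAP1-deficient adults from homozygotes (log2 0.43 for homozygotes, interval -0.01 to 0.87). Without homozygote replicate 3, the lowest of its group, homozygotes were called higher than KEAP1-deficient adults (log2 0.64, adjusted p = 0.016).

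Prdx1 followed another order. It read 3287, 3145, 3273 and 3281 in wild type, 7342, 9030, 8301 and 9426 in heterozygotes, 18484, 15419, 12158 and 19797 in homozygotes and 26077, 24472, 20310 and 24075 in KEAP1-deficient adults. No library of any of the 4 groups fell in the range of another. Prdx1 rose 2.61-fold (log2 1.39, SE 0.13, adjusted p = 5.8e-06), 4.98-fold (log2 2.32, SE 0.13, adjusted p = 5.4e-09) and 7.28-fold (log2 2.86, SE 0.13, adjusted p = 1.6e-10). Each neighbouring step passed the test: homozygotes were above heterozygotes (log2 0.93, adjusted p = 0.00027) and below KEAP1-deficient adults (log2 -0.55, adjusted p = 0.0047). With the striated muscle covariate the difference between homozygotes and KEAP1-deficient adults was larger in size, log2 -0.81, and not called (adjusted p = 0.53).

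Txn1 read 2789, 2509, 2721 and 2449 in adult wild type, 3800, 3046, 2970 and 2914 in heterozygotes, 4387, 4150, 3575 and 4680 in homozygotes and 5106, 5072, 4454 and 4609 in KEAP1-deficient adults. All mutant libraries lay above wild type, and neighbouring mutant groups overlapped. The log2 change was 0.28 in heterozygotes (SE 0.10, adjusted p = 0.079), 0.68 in homozygotes (SE 0.10, adjusted p = 0.00017) and 0.88 in KEAP1-deficient adults (SE 0.10, adjusted p = 1.9e-06). Txnrd1 read 1965, 2003, 2080 and 1559 in wild type, 3158, 2124, 2782 and 2705 in heterozygotes, 3095, 2761, 2368 and 3848 in homozygotes and 5658, 4302, 4080 and 4988 in KEAP1-deficient adults. Heterozygotes and homozygotes overlapped, and KEAP1-deficient libraries lay above both. Txnrd1 rose by log2 0.65 in homozygotes (SE 0.15, adjusted p = 0.0067) and 1.32 in KEAP1-deficient adults (SE 0.15, adjusted p = 4e-06). In heterozygotes the difference of 0.50 missed the threshold (SE 0.15, adjusted p = 0.052) and was called without any one of heterozygote replicate 2, homozygote replicates 3 and 4 or KEAP1-deficient replicate 1 (adjusted p from 0.028).

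Txnrd2 was not called in any adult comparison when all groups shared the fit. Its 16 adult libraries ranged from 88.9 to 159 normalised counts, and each mutant group overlapped wild type. Against wild type the log2 differences were 0.03, -0.22 and -0.29 in heterozygotes, homozygotes and KEAP1-deficient adults, with a 95% interval from -0.63 to 0.06 for the last. In a fit of only KEAP1-deficient and wild-type adults that last difference was called (adjusted p = 0.037).

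The other peroxiredoxins did not follow Prdx1 in adults. Prdx2 read 2208, 1991, 2039 and 2012 in wild type, 1824, 1734, 2170 and 2097 in heterozygotes, 1716, 1598, 1493 and 1946 in homozygotes and 1572, 1456, 1441 and 1661 in KEAP1-deficient adults. Homozygote and KEAP1-deficient libraries all lay below wild type. The log2 change of Prdx2 was -0.29 in homozygotes (SE 0.09, adjusted p = 0.026) and -0.43 with KEAP1 deficiency (SE 0.09, adjusted p = 0.00087), both called lower. The call in homozygotes ended without wild-type replicate 1 or 3 or homozygote replicate 2 or 3 (adjusted p up to 0.083). Red blood cell markers summed to 9582 to 148466 in wild type, 23478 to 321146 in heterozygotes, 667 to 28641 in homozygotes and 5940 to 11633 in KEAP1-deficient adults. Of the 7 markers, 1 fell in homozygotes and 3 in KEAP1-deficient adults, and their part in the Prdx2 values was not tested.

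Prdx5 read 2455, 2315, 2244 and 1907 in adult wild type and overlapped it in each mutant group, whose libraries ranged from 1625 to 2473. The log2 differences were -0.01, -0.16 and -0.11, and none was called. Prdx6 read 1318, 1107, 1260 and 1494 in wild type, 1941, 1890, 2427 and 4330 in heterozygotes, 1775, 2361, 1036 and 4418 in homozygotes and 934, 1072, 979 and 1075 in KEAP1-deficient adults. Heterozygotes lay above wild type and KEAP1-deficient adults below it, while homozygotes spanned the wild-type range. The coefficient of variation was 43.4% in heterozygotes and 60.6% in homozygotes, against 12.4% in wild type and 6.91% in KEAP1-deficient adults. No change against wild type was called (log2 0.95, 0.70 and -0.35, adjusted p = 0.093, 0.16 and 0.44). Without homozygote replicate 3 the change of homozygotes was called (log2 1.04, adjusted p = 0.024). The change of heterozygotes was called without homozygote replicate 3 or 4, which enter its estimate of the spread (adjusted p = 0.040 and 0.032). In a fit of only KEAP1-deficient and wild-type adults, which leaves out both L30F groups, Prdx6 was called lower (log2 -0.35, SE 0.09, adjusted p = 0.011), and with the muscle covariate the sign turned (0.77, SE 1.05).

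Glrx and Txnip moved in opposite directions in KEAP1-deficient adults. Glrx read 4675, 3832, 4519 and 3753 in adult wild type, 3478, 3651, 5124 and 5288 in heterozygotes, 4864, 5437, 4475 and 6470 in homozygotes and 6588, 5390, 5461 and 7016 in KEAP1-deficient adults. Only the KEAP1-deficient libraries stood clear of wild type, and Glrx rose there 1.45-fold (log2 0.54, SE 0.15, adjusted p = 0.0075), with 0.04 and 0.33 in heterozygotes and homozygotes (adjusted p = 0.89 and 0.12). Txnip read 5527, 8790, 9853 and 8722 in wild type, 10266, 6749, 5239 and 10121 in heterozygotes, 4871, 5540, 6908 and 7514 in homozygotes and 3665, 5250, 4724 and 4441 in KEAP1-deficient adults. Wild type and heterozygotes were widely spread. All KEAP1-deficient libraries lay below wild type, and their range overlapped that of heterozygotes and homozygotes. Txnip fell there, with a log2 change of -0.84 (SE 0.22, adjusted p = 0.006). As given above, both calls ended with the striated muscle covariate, where the log2 change was 0.84 for Glrx and -0.46 for Txnip (adjusted p = 0.35 and 0.77).

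**Figure D3:**
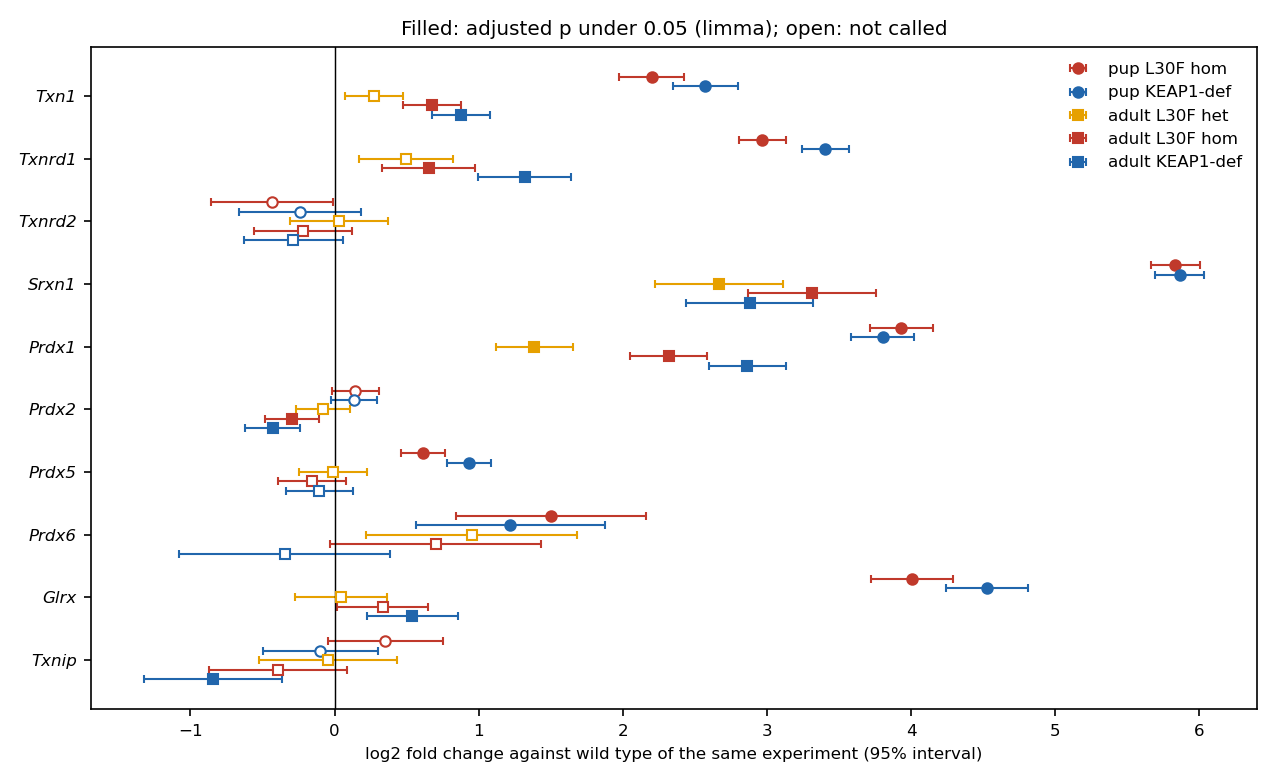
Log2 fold change of each member against the wild type of its own experiment, with 95% intervals, for 2 pup comparisons (circles) and 3 adult comparisons (squares); filled symbols passed the test. Srxn1, Prdx1, Txnrd1, Txn1 and Glrx reach further to the right in pups, and the interval of Prdx6 is the widest in each comparison.

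The adult heterozygotes allowed the effect of 1 mutant allele to be set against 2. Heterozygotes reached 80.5% of the homozygote log2 change for Srxn1, 76.0% for Txnrd1, 59.8% for Prdx1 and 40.7% for Txn1. These shares carry no error, and the heterozygote changes of Txnrd1 and Txn1 were not called. With the muscle covariate the heterozygote changes of Srxn1, Txnrd1, Prdx1 and Txn1 were log2 2.26, 0.19, 1.28 and 0.11. Those of homozygotes were then 3.28, 0.63, 2.31 and 0.66. As given above, muscle and genotype cannot be told apart in heterozygotes. Homozygotes exceeded heterozygotes in 3 members, where 16.4% of genes were called (8.07% higher and 8.29% lower, so 49.3% of the calls were higher, and 66.8% with total count scaling): Prdx1, Srxn1 (log2 0.65, SE 0.21, adjusted p = 0.046) and Txn1 (log2 0.40, SE 0.10, adjusted p = 0.010). The Srxn1 step was weak and lost its call in 14 alternatives, with adjusted p up to 0.12 when 1 library was left out. The Txn1 call ended in a fit of only these groups (adjusted p = 0.057) and with the muscle covariate, where the step was larger (log2 0.55, adjusted p = 0.053). Against the midpoint of wild type and homozygotes on the log2 scale, 1 member was called, where 8.97% of genes were called (5.03% higher and 3.95% lower, so 56.0% of the calls were higher, and 37.3% with total count scaling). Heterozygous Srxn1 lay above that midpoint by log2 1.01 (SE 0.18, adjusted p = 0.0041), and this too lost its call with the muscle covariate (log2 0.62, adjusted p = 0.59). A midpoint on the log2 scale lies below the midpoint of the counts, which was not tested. Mean counts in wild type, heterozygotes and homozygotes were 978, 6210 and 9965 for Srxn1 and 3247, 8525 and 16465 for Prdx1. On counts, heterozygotes lay nearer to homozygotes for Srxn1 and nearer to wild type for Prdx1.

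Homozygous and KEAP1-deficient adults differed in 3 of 10 members, where 26.4% of genes were called, 12.9% higher and 13.5% lower in homozygotes. Txnrd1 was lower in homozygotes (log2 -0.67, SE 0.15, adjusted p = 0.0044), as was Prdx1, while Prdx6 was higher (log2 1.05, SE 0.34, adjusted p = 0.036). The Prdx6 call ended without any 1 of homozygote replicates 2 and 4 or of the 4 KEAP1-deficient libraries (adjusted p up to 0.093). Heterozygous and KEAP1-deficient adults differed in 7 members, 4 lower and 3 higher in heterozygotes, where 44.8% of genes were called (21.6% higher and 23.2% lower, so 48.3% of the calls were higher, and 35.2% with total count scaling). Prdx1, Txnrd1, Txn1 and Glrx were lower by log2 -1.48, -0.82, -0.60 and -0.50, and Prdx6, Txnip and Prdx2 were higher by 1.30, 0.80 and 0.35. With the striated muscle covariate no member was called in either comparison, while SEs rose and several differences were larger. Txnrd1 was then -1.44 in homozygotes (SE 0.45) and -1.87 in heterozygotes (SE 0.60), and in heterozygotes Prdx1 was -1.84, Txn1 -1.18 and Glrx -0.91. Txnip and Prdx2 were smaller there, 0.26 and 0.07, and the sign of Prdx6 turned in both comparisons.

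The change against wild type was smaller in adults than in pups for most members. For L30F homozygotes the log2 change differed between the experiments in 8 of 10 members, all smaller or more negative in adults, where 33.5% of 19031 genes were called, 19.9% in that direction and 13.6% in the other. For KEAP1 deficiency it differed in 9 of 10, all in the same direction, where 47.1% of genes were called, 26.5% in that direction and 20.6% in the other. Of all differences called, 40.5% and 43.7% were higher in adults, and 65.5% and 72.6% with total count scaling. Glrx differed most, by -3.67 (SE 0.20, adjusted p = 1.4e-13) for homozygotes and -3.98 (SE 0.20, adjusted p = 1.1e-14) for KEAP1 deficiency. Its mean level was 320 in pup and 4195 in adult wild type, on separately normalised scales. Srxn1 differed by -2.52 and -2.98, Txnrd1 by -2.32 and -2.09, Txn1 by -1.52 and -1.69 and Prdx1 by -1.62 and -0.94. Prdx5, which rose only in pups by the test, differed by -0.77 and -1.04, and Prdx2 by -0.44 and -0.56, the first of which was not called with total count scaling (-0.19, adjusted p = 0.17). Txnip differed by -0.75 and -0.74 at adjusted p of 0.046 and 0.034, and each of those calls ended in many alternatives, with adjusted p up to 0.11 and 0.085 when 1 library was left out. Prdx6 differed for KEAP1 deficiency only (-1.56, SE 0.45, adjusted p = 0.0058). With the muscle covariate the KEAP1 differences that stayed called were those of Glrx, Txn1 and Srxn1, while those of Prdx5 (-1.02, adjusted p = 0.070) and Txnrd1 (-1.33, adjusted p = 0.061) missed the threshold. The others that were no longer called then were Prdx1 at -0.56, Txnip at -0.38, Prdx2 at -0.34 and Prdx6 at -0.15. Age, constitutive or inducible Cre, time after recombination and tamoxifen differ together between the experiments and cannot be told apart.

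**Figure D4:**
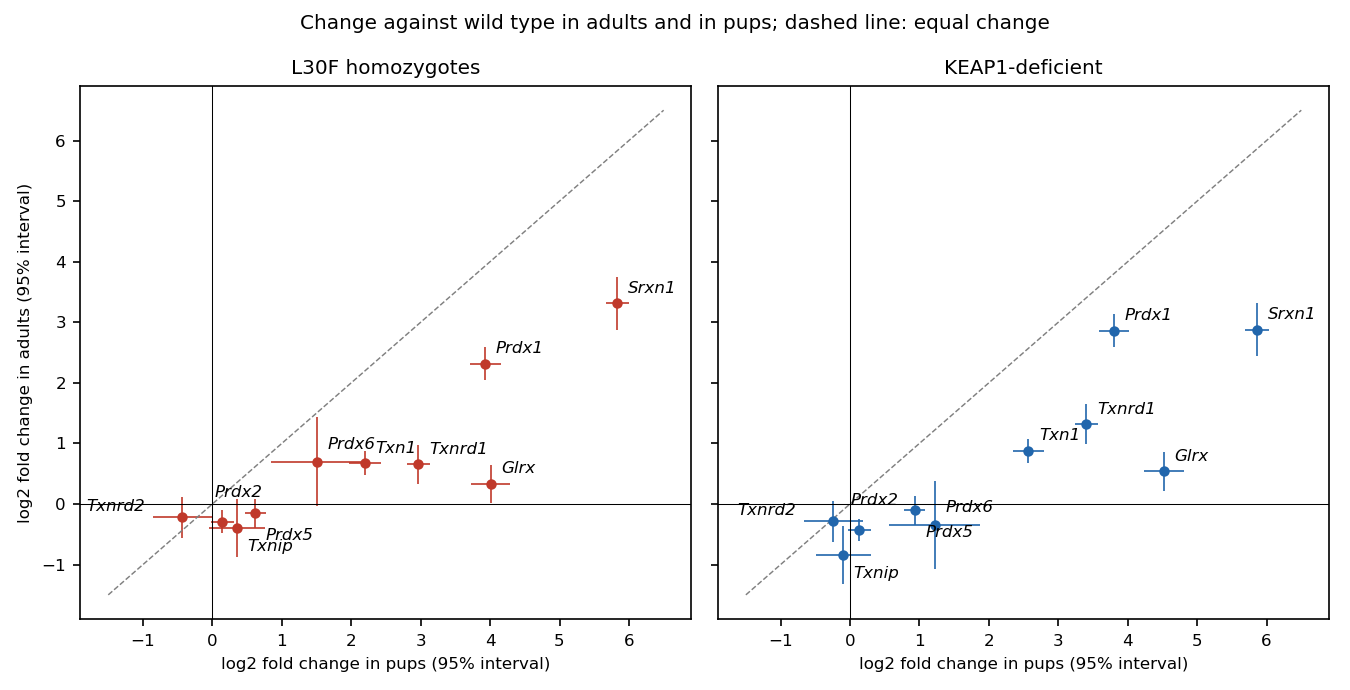
Log2 fold change against wild type in adults (vertical axis) and in pups (horizontal axis) for L30F homozygotes (left) and KEAP1-deficient mice (right), with 95% intervals on both axes; the dashed line marks equal change. Srxn1, Prdx1, Txnrd1, Txn1 and Glrx lie below the line in both panels, Glrx farthest.

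A wider list of 33 genes of the same pathways, of which all were tested, was counted in the same comparisons. It held further thioredoxin-like, peroxiredoxin and glutaredoxin genes, methionine sulfoxide reductases, sestrins, arrestin-domain relatives of Txnip, the MondoA and ChREBP factors and the selenoprotein synthesis machinery. In pup homozygotes 12 rose and 7 fell, where 22.0% of all genes were called higher and 17.1% lower. In KEAP1-deficient pups 15 rose and 7 fell, where the shares of all genes were 26.3% and 23.2%. The list's median log2 changes were 0.10 and 0.28. In adult heterozygotes 3 rose and 1 fell, where 9.70% of all genes were called. In homozygotes 9 rose and 3 fell, where 22.3% were called, 11.8% higher and 10.4% lower. In KEAP1-deficient adults 12 rose and 8 fell, where 46.8% were called, 24.1% higher and 22.7% lower. The adult medians were 0.13, 0.07 and 0.17. The counts in heterozygotes and the lower calls in pups, in adult homozygotes and in KEAP1-deficient adults were near the shares over all genes. With the muscle covariate 2 of the 20 calls in KEAP1-deficient adults remained, those of Txndc17 and Sesn1 among the genes named here.

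Txndc17, a small cytosolic thioredoxin-like protein, was the gene of that list that rose in all 5 comparisons with wild type. Its mean was 404 ± 23.8 (SD, n = 3) in wild-type pups, 1338 ± 103 in homozygotes and 1707 ± 161 in KEAP1-deficient pups, for log2 changes of 1.72 and 2.07. In adults it was 712 ± 61.1 (SD, n = 4) in wild type, 886 ± 83.1 in heterozygotes, 1155 ± 71.4 in homozygotes and 1330 ± 79.7 in KEAP1-deficient mice, for log2 changes of 0.32, 0.70 and 0.90. The heterozygote call ended without wild-type replicate 2 or 3 or heterozygote replicate 1 (adjusted p up to 0.079). It also ended with the muscle covariate (log2 0.26, adjusted p = 0.51). Prdx4, the peroxiredoxin of the endoplasmic reticulum, and Txndc5, a thioredoxin-domain protein of the same compartment, fell in both mutant pup groups (Prdx4 by log2 -0.89 and -0.96, Txndc5 by -0.82 and -0.69). Both rose in adult homozygotes and KEAP1-deficient adults (Prdx4 by 0.55 and 0.85, Txndc5 by 0.55 and 0.59). Fibroblast markers moved the same way, falling in 6 of 7 in both mutant pup groups and rising in 4 and 5 of 7 in these adult groups, with 1 falling in adult homozygotes, and their part was not tested. Prdx3, the mitochondrial peroxiredoxin, had a mean of 826 ± 67.3 (SD, n = 4) in adult wild type, 1050.4 ± 99.1 in heterozygotes, 867 ± 49.6 in homozygotes and 1173 ± 93.2 in KEAP1-deficient adults. It rose in heterozygotes (log2 0.34, adjusted p = 0.019) and in KEAP1-deficient adults (log2 0.50, adjusted p = 0.00013). The heterozygote call ended without wild-type replicate 1 or heterozygote replicate 3, in a fit of only these groups and with the muscle covariate (log2 0.19, adjusted p = 0.64). In heterozygotes, 6 of 12 striated muscle markers and 4 of 5 mitochondrially encoded transcripts rose as well, and their part was not tested further. With the covariate the change in KEAP1-deficient adults was 0.89 and not called (adjusted p = 0.060). In KEAP1-deficient pups Prdx3 was called higher (log2 0.24, adjusted p = 0.031), with the sign turned to -0.10 by total count scaling. The call ended with TMM scaling and without any one of wild-type replicates 1 and 3 or KEAP1-deficient replicates 1 and 3. It also ended with the muscle covariate (log2 0.25, adjusted p = 0.066).

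Among the sestrins, stress-induced proteins linked to nutrient signalling, Sesn2 rose in both mutant pup groups, by log2 1.12 and 1.40. It fell in adult heterozygotes by 0.34 on the log2 scale (adjusted p = 0.022, up to 0.073 when 1 library was left out). With the muscle covariate the heterozygote change was log2 -0.26 and not called (adjusted p = 0.53). In KEAP1-deficient adults Sesn2 was called higher (log2 0.25, adjusted p = 0.024), a call that ended without any one of wild-type replicates 2 and 4 or KEAP1-deficient replicates 1, 3 and 4 and with the muscle covariate (log2 0.05). Sesn3 fell in both mutant pup groups by log2 -0.94 and -0.92. Sesn1 fell in KEAP1-deficient adults, from 1193 ± 92.5 (SD, n = 4) in wild type to 548 ± 25.9, a log2 change of -1.12 (SE 0.12, adjusted p = 1.1e-06). It was also called lower in adult homozygotes, at 935 ± 71.6 (log2 -0.35, adjusted p = 0.039), a call that ended with total count scaling and without any one of wild-type replicates 1, 2 and 3 or homozygote replicates 1, 2 and 3 (adjusted p up to 0.11). Map3k5, the stress kinase held inactive by reduced thioredoxin, rose in both mutant pup groups, by log2 0.85 and 0.98, in adult homozygotes by 0.28 (adjusted p = 0.008) and in KEAP1-deficient adults by 0.54 (adjusted p = 8.2e-06). With the muscle covariate the last was 0.33 and not called. Mlxipl, which encodes the glucose-responsive factor ChREBP, fell in KEAP1-deficient adults by log2 -0.91 (SE 0.23, adjusted p = 0.0044), a call that ended with the muscle covariate.

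Across libraries, the genes whose log2 values were most like those of Srxn1 were Gclc, a subunit of the enzyme that starts glutathione synthesis, Gstm1, a glutathione transferase, and the metallothionein Mt3. Their Pearson r with Srxn1 was 0.999, 1.00 and 0.998 over the 9 pup libraries and 0.981, 0.979 and 0.980 over the 16 adult libraries. For Txnrd1 they were Cemip, Ppard and Gjb2, with 0.997 each in pups and 0.949, 0.946 and 0.946 in adults. For Prdx2 they were Kif9, Kif21a and Rnf167, with 0.828, 0.844 and 0.822 in pups and 0.899, 0.881 and 0.888 in adults. For Txnip they were Zcchc14, Rgcc and Tns2, with 0.933, 0.889 and 0.802 in pups and 0.698, 0.708 and 0.714 in adults. These are descriptions: the libraries of a genotype share their treatment, and the genes share depth and scaling within a library.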

How the data were processed

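RNA of whole mouse esophagus was sequenced as 25 libraries in 7 groups. Per the labels' protocols the libraries were made from total RNA with a directional kit, and per the submitters' processing notes Salmon and GRCm39 were used, with no version given. The authors deposited 1 table per experiment with log2 values per gene. From the values, each is log2 of a normalised read count plus 4, and dividing out a size factor returned whole reads (tolerance 0.1, up to 1000 reads) for 100% of values. Salmon can split reads between a gene and near-identical copies.

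Values were taken back to normalised counts and tested as log2(value + 1) with limma 3.58.1 (trend and robust, statmod 1.5.0) in R 4.3.3. A gene needed a value of at least 1 in 3 pup or 4 adult libraries. All groups of a table shared 1 fit without a replicate term, with Benjamini-Hochberg adjustment over all genes tested and calls under 0.05. Differences between experiments were the difference of the log2 changes over the root of the summed squared SEs, with Welch-Satterthwaite degrees of freedom, adjusted over 19031 genes. Intervals are 95% and unadjusted. The steps were tested on simulated data. Alternatives were offsets of 0.1, 4 and 5, TMM and total count scaling, testing unfiltered genes, limma-voom, thinning to equal depth, a replicate block, fits of only the groups compared, a striated muscle covariate and leaving out each library. With limma-voom on recovered reads, 8483 and 10315 genes were called in pup homozygotes and KEAP1-deficient pups against wild type, and 2124, 4247 and 10394 in adult heterozygotes, homozygotes and KEAP1-deficient adults.

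The 10 members and all lists were chosen with earlier results of these data known. From the list of 33 genes, up to 4 called genes per direction with the largest change could be named in each comparison with wild type. Further called comparisons of Map3k5, Prdx3 and Sesn2 were added after their values were seen. The genes most like Srxn1, Txnrd1, Prdx2 and Txnip were the 3 with the highest mean Pearson r over both tables. Python 3.11.15, pandas 2.3.3, numpy 2.4.6, scipy 1.17.1 and matplotlib 3.10.9 were used for the rest.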

Additional observations from a re-analysis of the deposited data

Results flagged for a closer look

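A single library stood apart from the other 3 of its group in 2 of 40 adult groups of values tested, and chance alone flags about 1 in 20 such groups. Txn1 read 3800 in adult heterozygote replicate 1, above 2914 to 3046 in the other heterozygotes. Prdx1 read 3145 in adult wild-type replicate 2, below 3273 to 3287 in the others, within a group whose SD was 67.8.

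The change against wild type differed between pups and adults, as adult minus pup on the log2 scale. For L30F homozygotes it differed by -3.67 for Glrx, -2.52 for Srxn1, -2.32 for Txnrd1, -1.62 for Prdx1, -1.52 for Txn1, -0.77 for Prdx5, -0.75 for Txnip and -0.44 for Prdx2. For KEAP1 deficiency it differed by -3.98 for Glrx, -2.98 for Srxn1, -2.09 for Txnrd1, -1.69 for Txn1, -1.56 for Prdx6, -1.04 for Prdx5, -0.94 for Prdx1, -0.74 for Txnip and -0.56 for Prdx2.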

How the results depend on the processing

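Of 133 single-gene results, the alternatives kept direction and side of the threshold in 3229 cases, ended a call in 153, made one in 16 and turned a sign in 28. The count of members called stayed within 1.5 times for both pup groups, for adult homozygotes against wild type and for the homozygote difference between experiments. In KEAP1-deficient adults against wild type 9 members were called with only the groups compared. With the striated muscle covariate the counts were 4 for KEAP1-deficient adults against wild type, 1 for homozygotes against heterozygotes, 3 for the KEAP1 difference between experiments, and 0 for homozygous against KEAP1-deficient pups, for homozygotes and heterozygotes against KEAP1-deficient adults and for the midpoint. Over all genes that covariate left 626 of 9290 calls in KEAP1-deficient adults, 85 of 1927 in heterozygotes, 291 of 3249 between homozygotes and heterozygotes, 11 of 1782 at the midpoint, 1 of 5248 and 0 of 8891 in homozygotes and heterozygotes against KEAP1-deficient adults, 2640 of 8967 for the KEAP1 difference and 34 of 875 between the pup mutants. Between the pup mutants, 1 member was called with total count scaling, with only the groups compared and with the replicate block. Fits of only the groups compared called 1 member between adult homozygotes and heterozygotes. Over all genes they called 185 between the pup mutants, 809 in heterozygotes, 1544 between homozygotes and heterozygotes and 1181 at the midpoint. Leaving out 1 library gave 0 to 3 members between the pup mutants (as few as 47 genes, without KEAP1-deficient replicate 2; 63 to 207 without wild-type replicate 2 or 3, homozygote replicate 1 or 2 or KEAP1-deficient replicate 1; without KEAP1-deficient replicate 3 the count also fell by over 1.5 times), 2 to 4 in heterozygotes against wild type (4 without homozygote replicate 3 or 4) and 1 to 2 at the midpoint (2 without homozygote replicate 4). Over all genes it gave 623, 1151 and 968 calls in heterozygotes without wild-type replicate 1, 2 or 3, 2132 between homozygotes and heterozygotes without homozygote replicate 1, and 1136 and 960 at the midpoint without wild-type replicate 1 or heterozygote replicate 3. Apart from the smaller number of libraries, the cause was not tested.

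Signs turned only in differences that were not called, apart from Prdx6 against KEAP1-deficient adults and Prdx3 in KEAP1-deficient pups. With total count scaling Prdx2 was -0.066 in pup homozygotes and -0.21 in KEAP1-deficient pups, Prdx3 -0.10 in KEAP1-deficient pups, Srxn1 0.10 between the pup mutants, and Glrx -0.0014 and Txnrd2 -0.015 in adult heterozygotes. With the muscle covariate Srxn1 was 0.015 between the pup mutants and -0.61 in homozygotes against KEAP1-deficient adults, Glrx -0.076 in heterozygotes, and Prdx6 0.77 in KEAP1-deficient adults against wild type, -0.11 in homozygotes and -0.27 in heterozygotes against KEAP1-deficient adults. With 1 library left out, Txnip ranged from -0.20 to 0.086 in KEAP1-deficient pups and from -0.23 to 0.14 in heterozygotes, Srxn1 from -0.069 to 0.043 between the pup mutants, Glrx from -0.054 to 0.15, Prdx5 from -0.085 to 0.057 and Txnrd2 from -0.064 to 0.15 in heterozygotes, and Prdx5 from -0.18 to 0.0091 in KEAP1-deficient adults.

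Libraries with the same replicate number correlated by -0.10 to 0.22 in pups and -0.07 to 0.10 in adults in their deviations from group means. Libraries with different numbers correlated by -0.12 to 0.097 in pups and -0.14 to 0.16 in adults. The highest pup value lay between wild-type replicate 3 and KEAP1-deficient replicate 3. So few pairs cannot decide whether the numbers pair libraries. The replicate block lowered the pup mutant comparison from 875 to 222 genes and 2 members to 1, and moved no other count of members by over 1.5 times. Planned edgeR and DESeq2 fits were not run, although whole reads could be recovered from the deposited log2 values. Of fits to read counts, limma-voom on the recovered reads was run. Adult homozygote libraries were the shallowest, and thinning all libraries to equal depth moved no count of members by over 1.5 times.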
